A study of Mus musculus with 4 samples.

Results

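The collagen genes of the mouse lung were followed in single cells of 2 genotypes: all rows whose gene symbol is Col, a number, the letter a and a number, 44 of the 32285 genes in the count matrices. The libraries are droplet single-cell RNA libraries of dissociated whole lung. GAL stands for mice with an edited Galt gene (2 libraries) and WT for wild-type mice (2 libraries). What the edit does to the gene, and the strain, age and sex of the animals, are not given in the labels. The lungs of both genotypes were minced and digested with collagenase IV at 0.1 mg/ml for 30 min at 37 degrees C, so that levels refer to the cells this digestion released. Galt RNA, which encodes an enzyme of galactose breakdown, stood at 13.4 and 10.6 CPM (UMIs, unique molecular identifiers that count RNA molecules, scaled to the same total in every sum) in GAL and at 11.4 and 11.4 CPM in WT.

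Collagens are the proteins of connective tissue fibres and of basement membranes. A molecule is a triple helix of 3 chains, each chain has its own gene, and chains of 1 trimer are made together in the endoplasmic reticulum, where prolines and lysines are hydroxylated and some lysines receive galactose and glucose before the trimer is secreted, trimmed and crosslinked. In the lung, fibroblasts lay down the fibrillar collagens of airways, vessels and alveolar walls. The type IV collagens form the thin sheet between the alveolar epithelium and the capillary, across which gas is exchanged.

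The 4 libraries held between 56218178 and 62406681 UMIs, and between 10757 and 13515 cells were kept per library, 47680 in all. Between 354 and 412 barcodes of a library also occurred in another one. Cell types were gated by 27 lists of standard markers that hold no collagen gene, which placed 39246 cells (82.3%). Markers left out of the gates were most frequent in their own lineage, counted as cells with at least 1 UMI. The leukocyte gene Ptprc was found in 83.7% of immune and 6.74% of stromal cells. The endothelial gene Cldn5 was found in 85.9% of endothelial and 5.33% of stromal cells. The epithelial gene Cdh1 was found in 58.0% of epithelial and 0.352% of stromal cells. Epcam, also epithelial, was found in 65.8% of epithelial but also in 14.8% of immune cells. The stromal gates were checked by Lum only, found in 12.5% of stromal cells and at most 0.405% of another lineage. Most stromal cells therefore lacked a left-out stromal marker. 22 types with at least 20 cells in at least 3 libraries are described, and a highest level below is the highest among them unless a smaller gate is named. GAL replicate 1 stood apart from the other 3 libraries: stromal gates made up 16.7% of its cells against 7.25% in GAL replicate 2 and 5.96% and 6.68% in WT, and its alveolar type 2 gate held 296 cells against 1, 63 and 50. The main comparisons of the genotypes are therefore also given without it. The labels do not tie libraries to animals, so a p-value here measures how far these 4 samples scatter, which may be technical only. Intervals come from the edgeR fits and include the scatter between libraries. Upper limits for counts of 0 cover counting error only.

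Collagen RNA was concentrated in the stromal gates. They held 69.1% and 69.1% of all collagen UMIs in the GAL libraries and 64.6% and 69.8% in the WT libraries. Adventitial fibroblasts, which surround vessels and airways, carried 37.2% ± 5.68 of these UMIs (SD, n = 4), and alveolar fibroblasts, which lie in the alveolar walls, 24.6% ± 5.66. Endothelial gates held 7.93% ± 1.87, and cells that no gate took held 17.5% ± 2.70. 43 of the 44 genes had at least 1 UMI. Col9a1 had 0 UMIs in 47680 cells, which allows a level of up to 0.0149 CPM. 11 genes had fewer than 20 UMIs in all, among them Col2a1 and Col10a1 of cartilage. 27 genes reached a mean of at least 1 CPM over the whole-lung sums, and the 12 largest held 91.1% of the 211207 collagen UMIs.

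**Figure D1:**
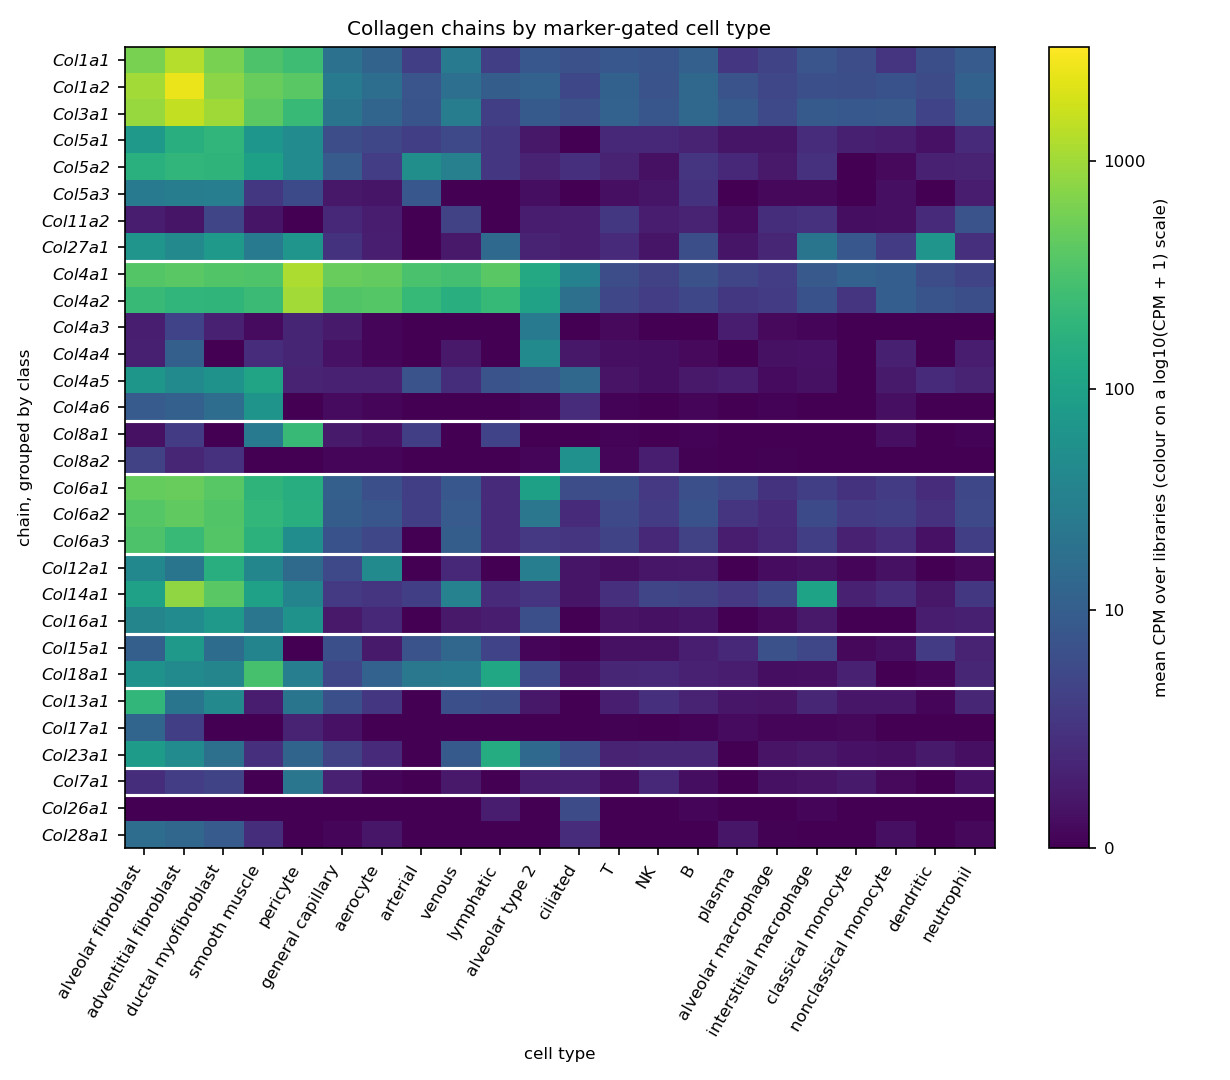
Mean level of each collagen chain (rows, grouped by class) in each gated cell type (columns), in CPM over the libraries with at least 20 cells of the type, with colour on a log scale; chains that reach at least 5 CPM in 1 type are drawn. The fibrillar chains at the top are brightest in the 3 fibroblast columns, with Col1a2 at 2476 CPM in adventitial fibroblasts, and the rows of Col4a1 and Col4a2 are brightest in pericytes.

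The fibrillar chains form the cross-striated fibres. Col1a1 and Col1a2 assemble type I collagen, Col3a1 forms type III, and Col5a1, Col5a2 and Col5a3 form type V, which starts and limits the fibres. Col1a2 stood at 2740, 3155, 2082 and 1928 CPM in the adventitial fibroblasts of GAL replicates 1 and 2 and then WT replicates 1 and 2, the order kept below. In alveolar fibroblasts it stood at 1211, 1036, 1019 and 842 CPM. All 4 adventitial values lay above all 4 alveolar ones. Fitted with the library as a block, Col1a2 was higher in adventitial fibroblasts by 1.36 ± 0.07 on the log2 scale (SE, edgeR adjusted p = 4.3e-12). Col1a1 stood at 1346, 1750, 1154 and 933 CPM in adventitial and at 685, 651, 590 and 542 CPM in alveolar fibroblasts, a log2 difference of 1.15 ± 0.08. Col3a1 stood at 1622, 1926, 1307 and 1094 CPM against 992, 884, 939 and 772 CPM, and Col5a1 at 146, 195, 168 and 119 CPM against 78.3, 77.8, 92.6 and 61.1 CPM. Neither pair of ranges overlapped, and the log2 differences were 0.81 ± 0.08 for Col3a1 and 1.11 ± 0.09 for Col5a1. The difference was smaller for Col5a2, at 0.42 ± 0.09 (edgeR adjusted p = 0.0011), with values of 228, 233, 203 and 147 CPM against 172, 154, 209 and 123 CPM that did overlap. Col5a3 did not pass, at 0.20 ± 0.15 (edgeR adjusted p = 0.33, 95% interval -0.11 to 0.51).

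Across the 22 cell types, Col1a1, Col1a2 and Col3a1 had nearly the same pattern of log2 levels: Pearson's r was 0.99 between Col1a2 and Col3a1 and 0.98 between Col1a2 and Col1a1. The types share libraries and the free RNA of those libraries, so r is a description of these points. Col1a2 lies at chromosome 6, 4504814 to 4541544, on the plus strand, and Col3a1 at chromosome 1, 45311538 to 45349706, also on the plus strand (GRCm38, GENCODE M21). Bases before an annotated transcript start are shown because these 2 genes moved together across types, beside those of Col13a1, which did not follow them among the fibroblasts. They were cut from RefSeq's promoter table (GRCm38.p6), which holds 35 of the 44 genes, and lie outside every GENCODE exon. Capitals mark matches, on either strand, to the motif TATAAA, to the motif GGGCGG or to the motif CCAAT; the marked matches do not overlap.
Col3a1 (chr1:45311288-45311537, plus strand): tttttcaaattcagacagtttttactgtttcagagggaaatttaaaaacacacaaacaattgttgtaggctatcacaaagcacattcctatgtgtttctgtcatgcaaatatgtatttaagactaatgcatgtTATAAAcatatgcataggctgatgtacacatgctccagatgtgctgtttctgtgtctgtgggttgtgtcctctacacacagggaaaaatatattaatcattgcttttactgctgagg
Col1a2 (chr6:4505370-4505492, plus strand): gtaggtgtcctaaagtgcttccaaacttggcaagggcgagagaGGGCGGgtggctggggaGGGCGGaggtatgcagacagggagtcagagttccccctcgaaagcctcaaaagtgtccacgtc
Col13a1 (chr10:61979109-61979358, minus strand): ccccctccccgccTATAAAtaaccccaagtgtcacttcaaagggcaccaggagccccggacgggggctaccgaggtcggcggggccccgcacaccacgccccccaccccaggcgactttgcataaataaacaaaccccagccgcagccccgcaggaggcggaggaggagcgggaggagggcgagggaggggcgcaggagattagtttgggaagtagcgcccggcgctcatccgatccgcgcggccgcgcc
The 250 bases of Col3a1 are 35.2% G or C and hold 1 TATAAA, 112 bases before the end of the window. Those of Col13a1 are 68.8% G or C and also hold 1, at 232 bases. TATAAA occurs in 12.4% of all 250-base windows of the table. The 123 bases of Col1a2 lie inside the annotated gene, since its first transcript starts further upstream, and end at the start of another GENCODE transcript. They hold 2 copies of GGGCGG, a motif found in 26.7% of all windows of that length. CCAAT occurs in 33.8% of 250-base windows and in 0 of these 3. A match here is a run of letters, not a measured binding site.

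Of the other fibrillar genes, Col27a1, a fibrillar chain of cartilage, was also found in dendritic cells. Its level in dendritic cells was 83.9, 53.9, 54.9 and 71.6 CPM, and in alveolar fibroblasts 50.4, 40.6, 96.3 and 75.1 CPM, ranges that overlap. T cells held 1.97, 2.64, 1.05 and 1.25 CPM. Ccr7, the receptor of migrating dendritic cells, was 1 of the 8 markers of the dendritic gate. This gate fell from 563 to 274 cells when 1 more marker was needed. Dendritic cells with a UMI of Ccr7 stood at 87.7, 64.1, 67.8 and 81.9 CPM of Col27a1. Those without stood at 73.9, 25.2, 6.99 and 41.7 CPM, from 9, 49, 47 and 18 cells and 6, 13, 3 and 6 UMIs. Interstitial macrophages held 21.8, 22.0, 14.9 and 28.5 CPM of Col27a1, above every lymphocyte gate. In the same dendritic cells the 3 major fibrillar chains were low: Col1a2 had a mean of 5.47 CPM.

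The type IV chains build basement membranes. Col4a1 and Col4a2 form the network found in nearly all of them, and Col4a3, Col4a4 and Col4a5 form a second trimer of kidney and alveolar membranes. Pericytes, the cells that wrap capillaries, carried 1261, 928 and 1311 CPM of Col4a1 in GAL replicate 1, GAL replicate 2 and WT replicate 2; WT replicate 1 held only 17 pericytes and takes no part. Col4a2 stood at 1217, 899 and 978 CPM in them. Alveolar fibroblasts stood at 395, 333, 410 and 306 CPM of Col4a1 and at 260, 239, 252 and 171 CPM of Col4a2, below every pericyte value. The log2 difference was 1.502 ± 0.21 for Col4a1 (edgeR adjusted p = 9.0e-11) and 1.97 ± 0.21 for Col4a2 (edgeR adjusted p = 7.9e-17). General capillary cells carried 443, 494, 576 and 453 CPM of Col4a1, and aerocytes, the flat capillary cells of gas exchange, 438, 505, 497 and 390 CPM. These 2 ranges overlapped, with a log2 difference of -0.13 ± 0.08 (edgeR adjusted p = 0.20, 95% interval -0.29 to 0.02). Endothelial gates held 36.1% ± 7.31 of all Col4a1 UMIs, and stromal gates 39.6% ± 3.16. Col4a1 was also the leading chain of venous cells, at 290, 223, 421 and 197 CPM, and of lymphatic cells, at 310.5, 533 and 358 CPM in the 3 libraries with at least 20 of them.

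Arterial cells held 143, 425 and 358 CPM of Col4a1 in GAL replicate 1, WT replicate 1 and WT replicate 2. Against general capillary cells of the same libraries, Col4a1 was lower by -0.74 ± 0.18 and Col5a2 higher by 2.63 ± 0.63 on the log2 scale (edgeR adjusted p = 0.0020 and 0.0015). Col5a2 stood at 81.9, 53.1 and 23.9 CPM in these arterial cells and at 7.67, 8.48 and 9.36 CPM in general capillary cells. These were the 2 of 7 collagen genes tested that were called, against 3.56% of all genes. The arterial values rest on 8, 5 and 2 UMIs of Col5a2, and 0 of the 7 were called without GAL replicate 1. Arterial cells of that library were 33.

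Col4a3 and Col4a4 stood highest in the alveolar type 1 gate, which was small in 3 libraries. In alveolar type 1 cells, the flat cells that line the air space, GAL replicate 1 held 345 UMIs of Col4a3 and 387 of Col4a4 in 104 cells, or 621 and 697 CPM. The other libraries had only 2, 13 and 12 such cells, with 0, 20 and 16 UMIs of Col4a3 and 1, 25 and 27 of Col4a4. The same gate of GAL replicate 1 held 582 CPM of Col4a1, 809 CPM of Col4a2 and 169 CPM of Col4a5. In the other libraries it had 5, 28 and 26 UMIs of Col4a1, 6, 39 and 21 of Col4a2 and 1, 8 and 4 of Col4a5. Alveolar type 2 cells, which make surfactant, held 34.7, 21.9 and 21.4 CPM of Col4a3 and 70.0, 30.1 and 36.7 CPM of Col4a4 in GAL replicate 1, WT replicate 1 and WT replicate 2. The mesothelial gate, cells of the lung surface, held 146 and 146 CPM of Col4a4 in GAL replicate 1 and WT replicate 1, from 15 and 4 UMIs in 12 and 7 cells, and 29.3 and 36.5 CPM of Col4a3, from 3 and 1 UMIs. The 2 alveolar types could not be compared by a test, since 1 library had 20 cells of both. A low level of Col4a4 was found in adventitial fibroblasts, at 15.02, 13.6, 5.99 and 6.66 CPM, against 0.934, 0.689, 1.24 and 1.27 CPM in alveolar fibroblasts (log2 difference 3.59 ± 0.38, edgeR adjusted p = 2.6e-07).

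The 3 pairs of type IV genes sit head to head. Col4a4 starts at position 82586849 of chromosome 1 on the minus strand and Col4a3 at 82586921 on the plus strand, with 71 bases between their annotated starts (GRCm38, GENCODE M21). The annotated starts of Col4a1 and Col4a2 on chromosome 8 overlap by 22 bases, and those of Col4a5 and Col4a6 on chromosome X lie 1308 bases apart. The gap between Col4a3 and Col4a4 is shown because both genes were found in the same epithelial gates, with r = 0.89 across the 22 types.
Col4a3-Col4a4 (chr1:82586850-82586920, plus strand): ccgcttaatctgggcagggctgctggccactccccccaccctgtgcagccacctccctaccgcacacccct
The gap is 69.0% G or C and holds none of the 3 motifs on either strand. CCAAT occurs in 13.3% of all windows of 71 bases before a start, TATAAA in 4.4% and GGGCGG in 20.7%. Each of the other pairs also had its partner as the most similar gene, with r = 0.99 for Col4a1 and Col4a2 and r = 0.89 for Col4a5 and Col4a6.

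Smooth muscle cells carried the highest described levels of Col4a6, at 61.7, 39.9, 91.4 and 62.6 CPM, against 13.1, 6.20, 8.08 and 9.55 CPM in alveolar fibroblasts. The log2 difference of Col4a6 was 2.65 ± 0.24 (edgeR adjusted p = 5.0e-11). Col4a5 stood at 110, 94.4, 85.3 and 143 CPM in smooth muscle and at 77.5, 79.2, 73.3 and 52.2 CPM in alveolar fibroblasts, a difference of 0.74 ± 0.18. In pericytes Col4a5 had 1 UMI in all 4 libraries, so that no fold is given.

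**Figure D2:**
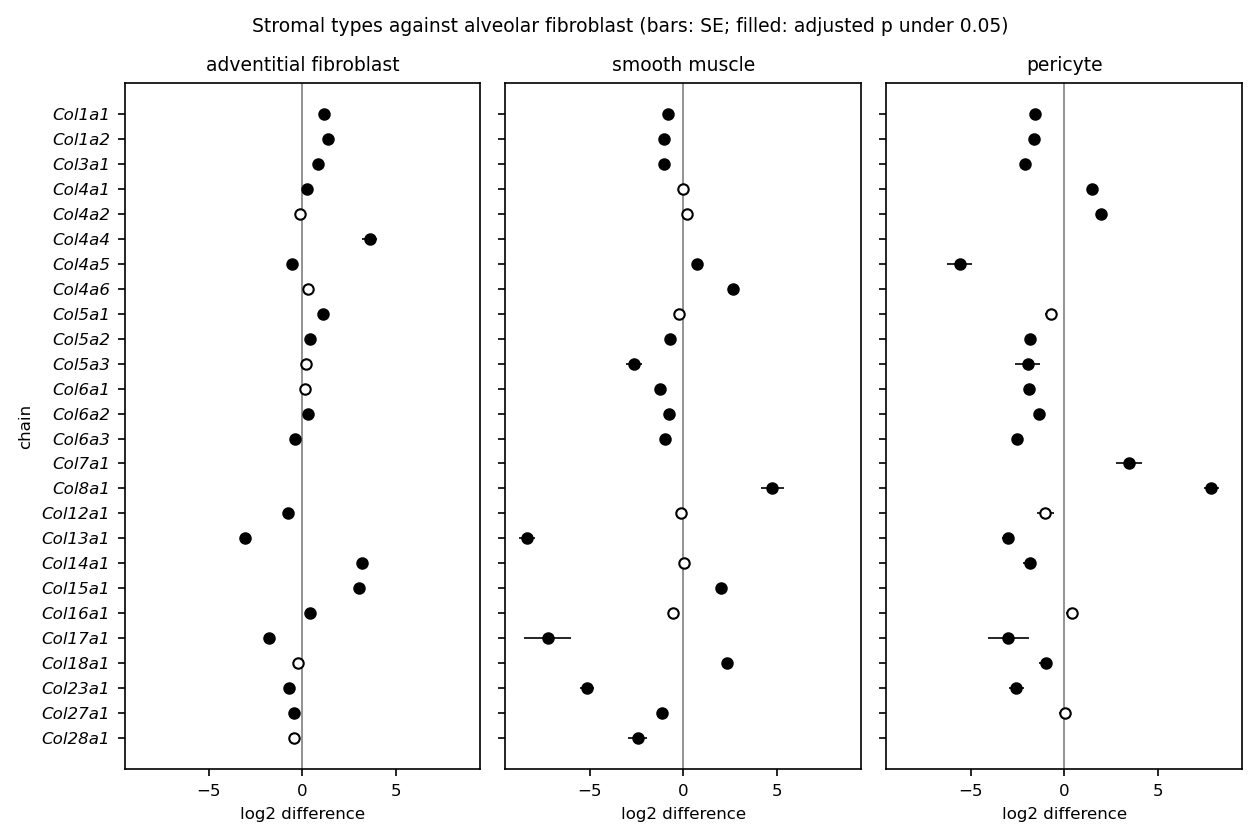
Difference of each collagen chain between a stromal type and alveolar fibroblasts, on the log2 scale with its standard error, from an edgeR fit with the library as a block; filled points have an adjusted p under 0.05. Col14a1 and Col15a1 lie right of 0 in adventitial fibroblasts and Col13a1 left of it in all 3 panels, where its smooth muscle value and that of Col17a1 rest on 1 and 0 UMIs. The pericyte values of Col4a5 and Col17a1 rest on 1 UMI each.

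Set against alveolar fibroblasts over all collagen genes, 18 of 24 tested were called in adventitial fibroblasts, where 34.3% of all genes were called. 11 were higher and 7 lower (all genes: 18.3% and 16.0%). In smooth muscle it was 18 of 24 (all genes 37.2%). In pericytes it was 18 of 22 (all genes 24.9%), 4 higher and 14 lower (all genes: 11.8% and 13.1%). Among those lower, Col4a5 and Col17a1 had 1 UMI each in pericytes. The median log2 difference of the genes tested was 0.23, -0.74 and -1.58 in the 3 comparisons. Genes that did not reach the count filter of a comparison were not tested, which favours chains high in either type.

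Most of the fibrillar chains tested were lower in smooth muscle and in pericytes than in alveolar fibroblasts. Col5a1 did not pass, at -0.24 ± 0.18 in smooth muscle (edgeR adjusted p = 0.33) and -0.73 ± 0.30 in pericytes (edgeR adjusted p = 0.061), nor did Col27a1 in pericytes, at 0.05 ± 0.30 (edgeR adjusted p = 0.94). In smooth muscle Col1a2 stood at 504, 476, 506 and 440.3 CPM, Col1a1 at 317, 309, 445 and 275 CPM and Col3a1 at 414, 407, 378 and 445 CPM. Their log2 differences from alveolar fibroblasts were -1.01 ± 0.11, -0.84 ± 0.12 and -1.04 ± 0.12. Col5a2 stood at 88.8, 116, 97.5 and 80.5 CPM there (-0.70 ± 0.16), and Col27a1 at 20.9, 32.7, 30.5 and 26.8 CPM (-1.15 ± 0.23). Col5a3 stood at 6.27, 0, 0 and 4.47 CPM in smooth muscle, against 33.8, 13.8, 35.4 and 22.9 CPM in alveolar fibroblasts (-2.64 ± 0.41). In the pericytes of 3 libraries Col1a2 stood at 513, 309 and 369 CPM (-1.63 ± 0.23), Col1a1 at 340.4, 201 and 222 CPM (-1.53 ± 0.23) and Col3a1 at 428, 173 and 92.3 CPM (-2.12 ± 0.24). Col5a2 was at 60.1, 46.8 and 36.9 CPM in them (-1.82 ± 0.29), and Col5a3 at 12.01, 3.60 and 0 CPM (-1.95 ± 0.66). Type VI chains were lower too: Col6a1 at 184, 133 and 129 CPM (-1.86 ± 0.24), Col6a2 at 184, 158 and 129 CPM (-1.35 ± 0.23) and Col6a3 at 96.1, 57.5 and 0 CPM (-2.53 ± 0.28). Pericytes held 40.0, 25.2 and 0 CPM of Col13a1, 16.0, 21.6 and 0 CPM of Col23a1, 52.1, 21.6 and 18.5 CPM of Col18a1 and 44.05, 10.8 and 55.4 CPM of Col14a1, all 4 called lower. Ductal myofibroblasts were in no tested pair. They held 871, 1231, 1184 and 735 CPM of Col3a1 and 948, 786, 908 and 488 CPM of Col1a2.

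Col13a1, a membrane-spanning chain, was highest in alveolar fibroblasts. It stood at 226, 177, 215 and 218 CPM in alveolar fibroblasts, at 63.7, 73.5, 21.8 and 12.7 CPM in ductal myofibroblasts and at 30.6, 22.3, 20.9 and 14.99 CPM in adventitial fibroblasts. The log2 difference between adventitial and alveolar fibroblasts was -3.07 ± 0.13 (edgeR adjusted p = 2.1e-13). Smooth muscle had 1 UMI of Col13a1. Alveolar fibroblasts held 63.2% ± 9.73 of all Col13a1 UMIs. Col17a1, the hemidesmosome chain of epithelia, was low throughout, with its highest described level in alveolar fibroblasts at 12.5, 11.7, 12.4 and 14.6 CPM. Adventitial fibroblasts had 2.78, 4.89, 2.99 and 3.33 CPM of Col17a1 (log2 difference -1.80 ± 0.28). Smooth muscle had 0 UMIs of it in 435 cells, which allows up to 1.63 CPM. Col23a1, another membrane chain, was highest in lymphatic cells, at 162, 109 and 165 CPM in 3 libraries. It stood at 82.0, 96.4, 82.0 and 78.3 CPM in alveolar and 59.8, 44.6, 46.4 and 37.8 CPM in adventitial fibroblasts (-0.69 ± 0.12). Smooth muscle had 2.09, 3.63, 0 and 2.24 CPM of Col23a1.

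Col14a1, which binds to the surface of fibres, was highest in adventitial fibroblasts. It stood at 871, 707, 804 and 962 CPM in adventitial fibroblasts, at 463, 346, 450 and 368 CPM in ductal myofibroblasts and at 126, 59.9, 108 and 101.2 CPM in alveolar fibroblasts. Adventitial and alveolar fibroblasts differed by 3.19 ± 0.10 on the log2 scale (edgeR adjusted p = 2.0e-15). Interstitial macrophages also held Col14a1, at 115, 96.3, 75.3 and 132 CPM from 248, 376, 258 and 171 UMIs. Alveolar macrophages had 6.02, 4.05, 3.43 and 5.31 CPM, T cells 3.22, 1.91, 1.58 and 1.25 CPM and B cells 4.18, 3.28, 3.97 and 3.30 CPM of Col14a1. Every interstitial macrophage value lay above every value of these 3 gates. In the same macrophages Col1a2 had a mean of 6.21 CPM, against 11.2 CPM in T cells. Interstitial macrophages carried 4.93%, 17.6%, 13.5% and 6.94% of the Col14a1 UMIs of the 4 libraries.

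Col12a1, of the same fibre-surface group, followed another order. Its highest level was in ductal myofibroblasts, the contractile cells of the alveolar ducts, at 166, 147, 160 and 178 CPM. The ductal gate fell from 244 to 125 cells when 1 more marker was needed. Of its 6 markers, Pdgfra and Lgr6 were found in only 17.6% and 15.6% of its cells. Aerocytes held 42.2, 38.6, 55.7 and 44.4 CPM of Col12a1 and general capillary cells 6.87, 4.99, 2.26 and 5.62 CPM, a log2 difference of 2.99 ± 0.23 (edgeR adjusted p = 4.0e-20). Of 13 collagen genes tested between the 2 capillary types, 3 were called, against 33.2% of all genes. The others were Col18a1 at 1.19 ± 0.40, with 5.58, 21.7, 13.9 and 5.99 against 3.44, 5.82, 5.65 and 2.995 CPM, and Col5a2 at -1.22 ± 0.43. Both lost their call without GAL replicate 2 (edgeR adjusted p = 0.13 and 0.081), which left 1 gene called, and without GAL replicate 1 it was 6 genes. Col18a1 also lost it without WT replicate 1 and Col5a2 without WT replicate 2 (edgeR adjusted p = 0.0502 and 0.153). Col12a1 was lower in adventitial than in alveolar fibroblasts by -0.79 ± 0.15, at 24.2, 20.6, 21.7 and 19.99 against 42.0, 27.5, 55.9 and 42.0 CPM. Col16a1, also of this group, stood at 48.7, 48.9, 60.6 and 34.98 CPM in adventitial and 42.0, 36.5, 43.5 and 29.9 CPM in alveolar fibroblasts (0.43 ± 0.11).

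The 2 multiplexins, Col15a1 and Col18a1, sit in basement membrane zones, and the end of Col18a1 is the source of endostatin. Among the described types Col18a1 was highest in smooth muscle, at 304, 396, 201 and 288 CPM. Next were lymphatic cells, at 146, 109 and 103 CPM in 3 libraries. Schwann cells were only 6, 1 and 1 in 3 libraries and held 779, 503 and 1565 CPM of Col18a1 from 15, 1 and 4 UMIs. Alveolar fibroblasts held 60.9, 60.6, 68.4 and 56.0 CPM (log2 difference of smooth muscle 2.36 ± 0.15, edgeR adjusted p = 8.4e-15). Col15a1 was highest in adventitial fibroblasts, at 94.9, 73.4, 72.6 and 63.3 CPM, then in smooth muscle at 48.1, 29.0, 30.5 and 42.5 CPM, with 10.6, 9.64, 13.1 and 8.91 CPM in alveolar fibroblasts. The log2 differences from alveolar fibroblasts were 3.04 ± 0.14 and 2.04 ± 0.27. Col15a1 was also the leading chain of alveolar macrophages, at 6.38, 6.34, 6.10 and 6.56 CPM from 71, 83, 112 and 94 UMIs, against 0.358, 0.294, 0.702 and 0.469 CPM in T cells. The macrophage mean was 6.34 ± 0.190 CPM (SD, n = 4), while the whole-lung level of Col15a1 was 12.6, 6.96, 6.56 and 6.35 CPM.

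The beaded filaments of type VI collagen need 3 different chains, Col6a1, Col6a2 and another such as Col6a3. In alveolar fibroblasts Col6a1 stood at 552, 438, 469 and 421 CPM, Col6a2 at 411, 345, 458 and 292 CPM and Col6a3 at 401, 282, 371 and 272 CPM. Adventitial fibroblasts had 580, 493, 477 and 369 CPM of Col6a1, which did not pass (0.13 ± 0.07, edgeR adjusted p = 0.14), and 500, 456, 474 and 311 CPM of Col6a2 (0.32 ± 0.07). Col6a3 was lower there, at 284, 203, 265 and 185 CPM (-0.39 ± 0.07). Alveolar type 2 cells had 128, 87.6 and 70.4 CPM of Col6a1 in GAL replicate 1, WT replicate 1 and WT replicate 2, but 5.54, 0 and 3.06 CPM of Col6a3, from 11, 0 and 1 UMIs. Smooth muscle was below alveolar fibroblasts for all 3 chains, by -1.25 ± 0.13, -0.78 ± 0.13 and -0.97 ± 0.16. Col6a4, Col6a5 and Col6a6 had between 6 and 28 UMIs in all.

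Of the short-chain network collagens, Col8a1 was a pericyte chain and Col8a2 a chain of ciliated cells. Col8a1, known from vessel walls, stood at 268, 176 and 240 CPM in the pericytes of 3 libraries, from 67, 49 and 13 UMIs. Alveolar fibroblasts had 7 UMIs of Col8a1 in 1847 cells. The log2 difference was 7.87 ± 0.39 (edgeR adjusted p = 9.5e-51). Smooth muscle held 8.36, 43.6, 0 and 53.6 CPM of Col8a1. Col8a2 stood at 35.6, 68.2, 51.3 and 79.5 CPM in ciliated airway cells, from 30, 25, 13 and 26 UMIs, and at most 3.74 CPM on average in any other described type. Col7a1, the anchoring fibril of skin, had 32.0, 36.0 and 0 CPM in pericytes from 8, 10 and 0 UMIs (3.47 ± 0.69 over alveolar fibroblasts, which had 2.06, 2.75, 1.24 and 1.27 CPM). Col28a1 stood at 31.9, 9.64, 19.3 and 6.37 CPM in alveolar fibroblasts and at 7.32, 0, 0 and 0 CPM in smooth muscle (-2.44 ± 0.48).

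Free RNA from broken cells can enter droplets, so collagen UMIs of cells that make no collagen can serve as a measure of background. How much of the immune collagen RNA is free RNA was not tested. Over all immune gates the summed level of the 44 genes was 106, 68.2, 61.0 and 46.9 CPM. That is 5.44%, 8.02%, 9.21% and 7.19% of the whole-lung level of the same library. Both GAL values were above both WT values, and the exact two-sided permutation test gave p = 0.33, the smallest that 2 libraries against 2 allow. Lymphocytes stood at 103, 67.4, 98.4 and 42.2 CPM. In GAL replicate 2 and WT replicate 1, 3 and 6 lymphocytes with at least 5 collagen UMIs held 34.8% and 63.2% of these, and without such cells the 4 values were 98.5, 44.1, 36.5 and 41.0 CPM. With all immune cells that hold 5 or more collagen UMIs beside Col14a1 left out, the immune level was 101.4, 57.2, 45.3 and 45.2 CPM, a ratio of GAL to WT of 1.75 against 1.61 with them. This alternative was chosen after seeing the data. Without GAL replicate 1 the ratio was 1.26. Other RNA foreign to lymphocytes also differed between libraries. In lymphocytes the surfactant gene Sftpc stood at 398, 7.09, 84.3 and 67.1 CPM and the club cell gene Scgb1a1 at 568, 84.1, 136 and 106 CPM. The hemoglobin gene Hbb-bs stood at 107, 106, 28.9 and 485 CPM, highest in WT replicate 2.

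**Figure D3:**
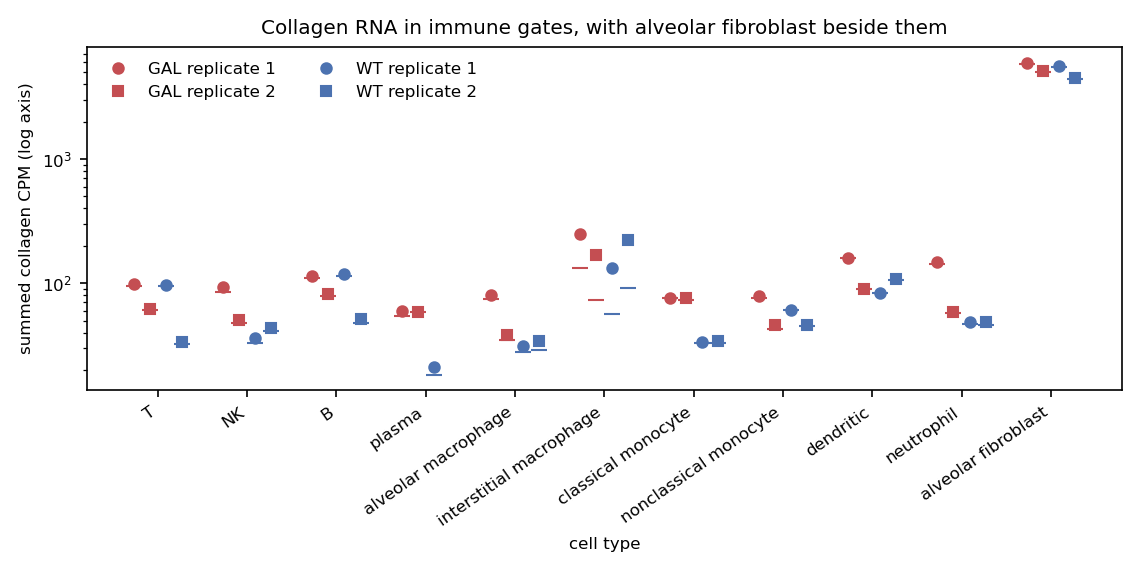
Summed CPM of the 44 collagen genes in each immune gate and in alveolar fibroblasts, on a log axis, 1 point per library with at least 20 cells; the dash near each point is the sum without Col14a1. Interstitial macrophages lie above the other immune gates in all 4 libraries and drop to 133, 73.3, 56.3 and 91.7 CPM without Col14a1.

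The leading chain of most immune gates was 1 that is abundant in the whole lung. Col3a1 led in T cells at 15.6, 9.99, 17.2 and 3.59 CPM, in NK cells at 16.4, 7.17, 0 and 6.82 CPM and in plasma cells at 7.71, 16.2 and 2.63 CPM in 3 libraries. Col1a2 led in B cells at 16.4, 19.4, 15.9 and 4.58 CPM and in neutrophils at 23.7, 9.95, 5.12 and 5.90 CPM. Classical monocytes were led by Col4a1 at 19.8, 6.15, 10.7 and 10.1 CPM and nonclassical monocytes by Col4a2 at 6.32, 10.7, 12.6 and 10.5 CPM. After thinning each cell to 1000 UMIs, 8.58%, 3.83%, 3.41% and 4.06% of T cells and 96.6%, 97.1%, 97.9% and 95.7% of alveolar fibroblasts had a collagen UMI. Before thinning it was 27.8%, 11.5%, 8.69% and 9.71% of T cells, whose median depths were 3392, 2950, 2156 and 2773 UMIs. Alveolar fibroblasts had a median of 5959, 5654, 4406 and 4873 UMIs.

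In the whole-lung sums, collagen RNA was higher in the GAL libraries without a single gene passing the test. The summed level was 1938 and 850 CPM in GAL and 663 and 653 CPM in WT. Col1a2 stood at 397, 190, 121 and 125 CPM, Col3a1 at 289, 133, 95.1 and 91.3 CPM and Col1a1 at 219, 113, 72.9 and 69.9 CPM. Both GAL libraries were above both WT libraries for these 3 genes, with GAL replicate 1 far above GAL replicate 2. The log2 fold changes were 1.21 ± 0.33 for Col1a2, 1.13 ± 0.35 for Col3a1 and 1.17 ± 0.31 for Col1a1, each with an edgeR adjusted p of 0.768. Among the other large members, Col4a1 stood at 189, 78.2, 73.9 and 80.5 CPM (0.74 ± 0.39) and Col4a2 at 139, 64.5, 46.3 and 48.4 CPM (1.06 ± 0.34). Col6a1 stood at 139, 46.8, 41.4 and 38.0 CPM, Col6a2 at 109, 42.3, 42.0 and 30.6 CPM, and Col6a3 at 85.5, 25.8, 30.0 and 23.2 CPM, with log2 fold changes of 1.16, 0.99 and 1.00. Of these, only Col6a3 and Col4a1 had groups that overlapped. Col14a1 stood at 93.3, 43.2, 37.9 and 51.5 CPM (0.57 ± 0.35), Col5a2 at 47.3, 19.9, 18.9 and 14.2 CPM (0.97 ± 0.42), Col13a1 at 35.1, 10.6, 9.82 and 10.2 CPM (1.13 ± 0.53) and Col5a1 at 25.3, 14.7, 11.5 and 9.84 CPM (0.87 ± 0.28).

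**Figure D4:**
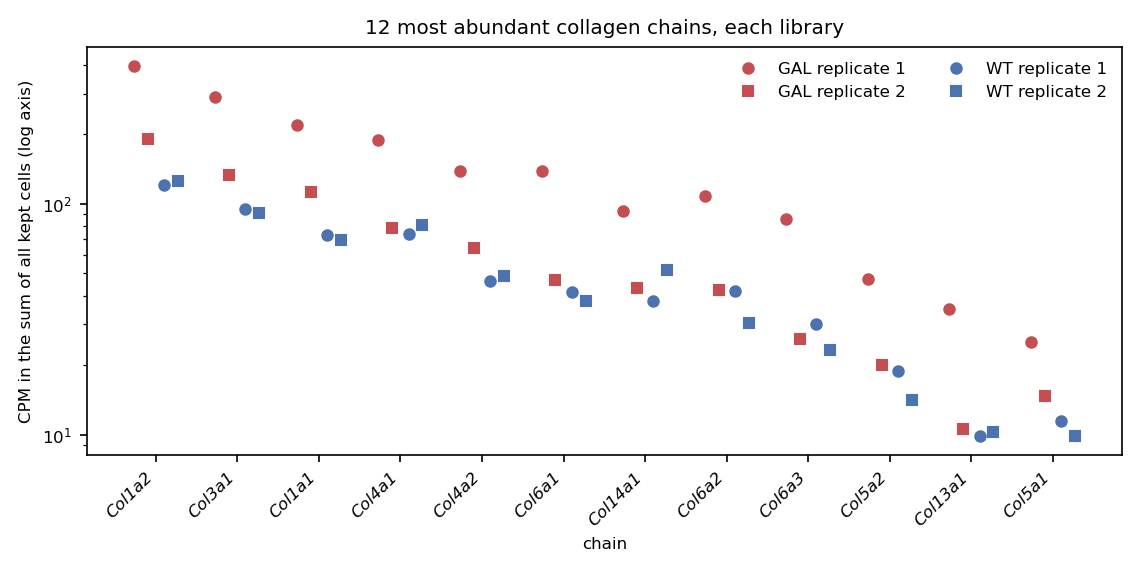
Level of the 12 collagen chains with the largest mean, in CPM of the sum of all kept cells on a log axis, 1 point per library. The upper circle of each chain is GAL replicate 1, and GAL replicate 2 lies close to the 2 WT libraries for Col6a3, Col13a1 and Col4a1.

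Of the 31 collagen genes tested in the whole lung, 0 were called by edgeR (0% of 16821 genes) and 0 by DESeq2, which called 29 genes. 9 had an unadjusted p under 0.05, against 5.46% of all genes. 29 had a positive log2 fold change (51.5% of all genes), and 19 had both GAL libraries above both WT libraries (18.1% of all genes). Their median log2 fold change was 0.99, against 0.01 over all genes. Without GAL replicate 1 the median was 0.26. Without GAL replicate 2, with GAL replicate 1 as the single GAL library, it was 1.42. In a sum over cells, more cells of a type and more RNA per cell cannot be told apart. Stromal gates held 11.99% ± 6.70 of the GAL cells and 6.32% ± 0.513 of the WT cells (SD, n = 2 libraries each; exact permutation p = 0.33). An equal-composition sum gave each of 17 gated types, and the ungated cells as 1 block, the same share of cells in every library. It left out gates without 20 cells in every library, among them pericyte, arterial, lymphatic, plasma and both alveolar epithelial gates. Values can move through that as well. In this sum the median was 0.33 (all genes 0.00), and 30 of the 31 genes had a smaller value than before. The share of all genes with a smaller value was not computed, but 12 of the 31 had both GAL libraries above both WT libraries (17.3% of all genes). 26 of the 31 remained positive, 0 were called, and 3 changed sign: Col14a1 from 0.57 to -0.028, Col4a6 from 0.83 to -0.072 and Col20a1 from 0.065 to -0.21.

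**Figure D5:**
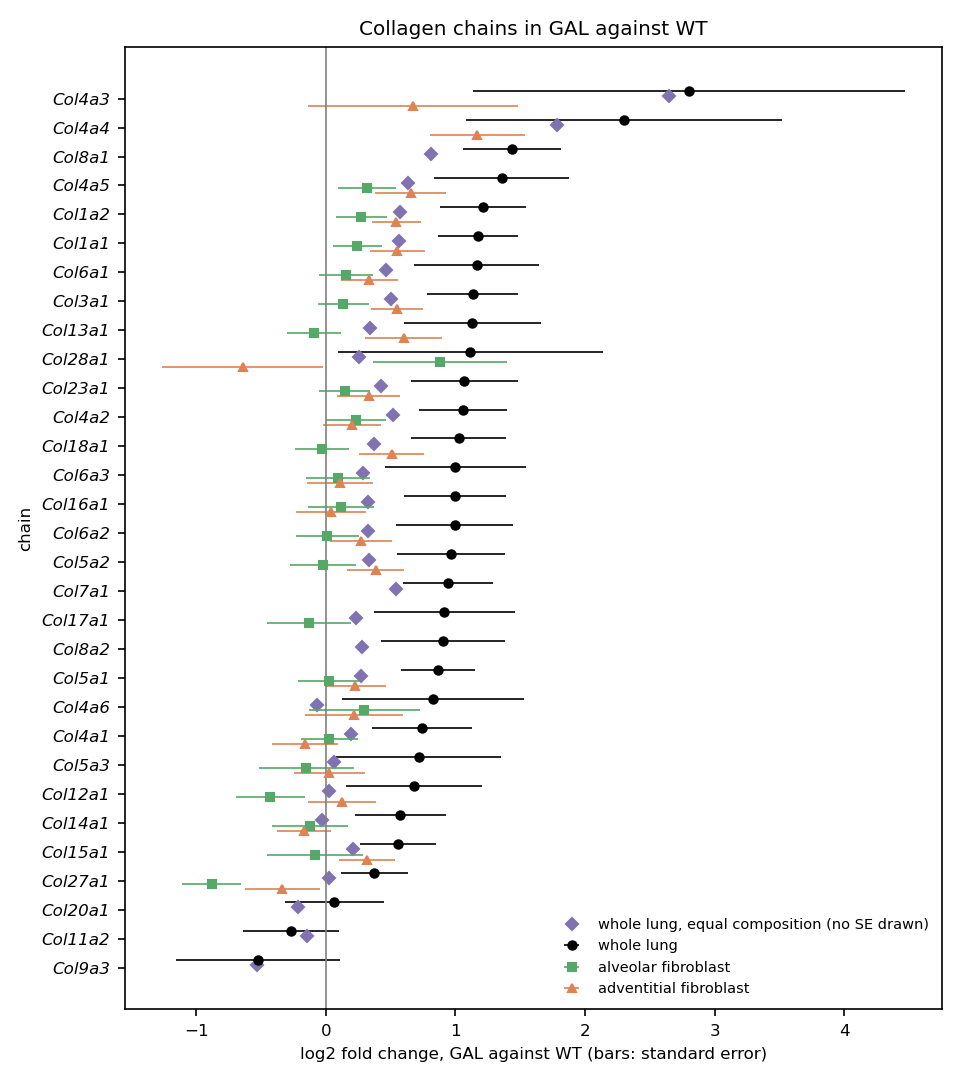
Log2 fold change of each collagen chain in GAL against WT, with its standard error, in the whole lung and in alveolar and adventitial fibroblasts. Diamonds, drawn without error, show a sum with equal shares of 17 gated types and of ungated cells in every library. The black whole-lung points lie right of the diamonds for 30 of 31 chains, and the alveolar fibroblast squares scatter about 0.

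Within the fibroblast gates the medians were smaller than in the whole lung. Alveolar fibroblasts held 5980 and 5085 CPM of collagen in GAL and 5653 and 4531 CPM in WT, and the median log2 fold change of 23 genes tested was 0.03 (all genes -0.00). Col27a1 had the smallest p, at 50.4 and 40.6 against 96.3 and 75.1 CPM (-0.88 ± 0.23, edgeR adjusted p = 0.581). It was 1 of 23 with an unadjusted p under 0.05 (all genes 4.62%). Adventitial fibroblasts held 9500 and 10065 CPM in GAL against 8101 and 6898 CPM in WT. Their median over 24 genes was 0.29, and 20 of the 24 were positive (49.6% of all genes). Col1a2, Col3a1 and Col1a1 had log2 fold changes of 0.54 ± 0.19, 0.55 ± 0.20 and 0.55 ± 0.21 there, with both GAL libraries above both WT libraries, and an edgeR adjusted p of 0.996. So did Col4a4 (1.17 ± 0.37) and Col4a5 (0.65 ± 0.27). 5 of 24 had an unadjusted p under 0.05, against 4.46% of all genes. Without GAL replicate 1 the medians of alveolar and adventitial fibroblasts were -0.15 and 0.07.

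Smooth muscle held 3235 and 3213 CPM in GAL and 3486 and 3241 CPM in WT, with a median of -0.16 over 18 genes. General capillary cells held 936 and 1073 CPM in GAL and 1100 and 848 CPM in WT. The smallest p among their collagen genes was that of Col1a2, at 25.1 and 44.5 against 18.1 and 15.4 CPM (1.06 ± 0.30, edgeR adjusted p = 0.940); lymphocytes held 14.1, 13.5, 15.5 and 4.19 CPM of Col1a2. Col4a2, which these cells carry at a high level, had 0.09 ± 0.23. Of 16 collagen genes tested in general capillary cells, 14 were positive (50.8% of all genes), with a median of 0.48. An unadjusted edgeR p under 0.05 was found for 5 of the 16, against 399 of all 10512 genes. Alveolar macrophages held 80.9 and 38.6 CPM in GAL against 31.5 and 34.4 CPM in WT. These sums lay below those of lymphocytes, at 103 and 67.4 CPM in GAL and 98.4 and 42.2 CPM in WT. Only Col15a1 reached 3 times the lymphocyte level in this gate, and its log2 fold change was 0.07 ± 0.20. All 14 collagen genes tested in alveolar macrophages were positive (51.4% of all genes), with a median of 1.18. Of these, 6 had an unadjusted p under 0.05 (3.39% of all genes). The ratio of the summed levels of GAL to WT was 1.81, and 1.17 without GAL replicate 1, where the median was 0.32 over 15 genes. On leaving out 1 library, 0 to 10 genes had an unadjusted p under 0.05, with 0 without WT replicate 2 and 1 without GAL replicate 1. Over 17 cell types with at least 30 cells in every library, edgeR called 0 collagen genes and 34 genes in all, and DESeq2 called 0 and 82. The smallest adjusted p of a collagen gene was that of Col1a2 in classical monocytes (2.90 ± 0.72, edgeR adjusted p = 0.237). It stood at 9.90 and 11.1 against 1.53 and 1.26 CPM, below the lymphocyte level of each library. Their collagen sums were 76.7 and 76.3 CPM in GAL and 33.7 and 34.1 CPM in WT, from 31, 62, 44 and 54 UMIs.

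The genes that process collagen were followed in 4 lists, 53 genes in all. Between adventitial and alveolar fibroblasts, 24 of 42 tested were higher and 8 lower in adventitial cells, with a median log2 difference of 0.33 (all genes: 18.3% higher and 16.0% lower, median -0.01). Of the folding and hydroxylation genes, 7 of 16 were higher and 2 lower. Serpinh1, the collagen chaperone, stood at 795, 698, 840 and 1007 CPM in adventitial and 503, 390, 577 and 688 CPM in alveolar fibroblasts (0.76 ± 0.06, edgeR adjusted p = 5.9e-09). The proline hydroxylase subunit P4ha2 was higher by 1.45 ± 0.16, and Colgalt2, which adds galactose to collagen lysines, lower by -3.60 ± 0.38. Of the export, trimming and crosslinking genes, 9 of 14 were higher and 2 lower. Adamts2 and Bmp1, which cut the ends of procollagen, differed by 1.30 ± 0.08 and 1.83 ± 0.13, and Lox, which crosslinks fibres, by -1.09 ± 0.10. Lox stood at 157, 133, 130 and 80.5 CPM in adventitial and at 291, 410, 249 and 211 CPM in alveolar fibroblasts. Of the breakdown and uptake genes, 7 of 8 were higher and 1 lower, with the protease Ctsk at 2.19 ± 0.12 and the inhibitor Timp3 at 1.07 ± 0.05. Of 4 receptors, Ddr2 was higher by 0.79 ± 0.07, and Itgb1, Itga1 and Ddr1 were lower by -0.39, -0.65 and -0.59.

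The receptor list had another order in pericytes and smooth muscle. Itga1, a collagen-binding integrin chain, stood at 1470, 1108 and 1791 CPM in the pericytes of 3 libraries and at 284, 428, 390 and 282 CPM in smooth muscle, against 28.8, 50.3, 28.6 and 27.4 CPM in alveolar fibroblasts. The log2 differences were 5.14 ± 0.24 and 3.43 ± 0.15. In smooth muscle all 7 breakdown genes tested were lower, in a comparison that called 37.2% of all genes, with Mmp2 at -4.17 ± 0.24, and Pcolce2, an enhancer of procollagen trimming, was lower by -3.53 ± 0.13. In pericytes Mmp2 was lower by -3.59 ± 0.32.

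Between the genotypes, 0 of the 53 processing genes were called by edgeR in the whole lung, and 11 had an unadjusted p under 0.05 (5.46% of all genes). 40 were positive (51.5% of all genes), and the median log2 fold change was 0.62, against 0.01 over all genes. Without GAL replicate 1 it was 0.19, with 33 positive. Without GAL replicate 2 it was 0.67, with 41 positive. Colgalt2 had the smallest p of them in the whole lung, at 1.37 ± 0.32, and stood at 1.32 ± 0.44 in alveolar fibroblasts (edgeR adjusted p = 0.768 and 0.837). Lox had 1.42 ± 0.35 in the whole lung and 0.60 ± 0.22 in alveolar fibroblasts. Within alveolar and adventitial fibroblasts, the medians over the processing genes were 0.05 and 0.08, with 0 of 39 and 0 of 41 called and 5 and 1 with an unadjusted p under 0.05 (4.62% and 4.46% of all genes).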

How the data were processed

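Droplet single-cell RNA libraries of whole mouse lung, 2 GAL and 2 WT, were analysed from the UMI count matrices the authors deposited, which hold raw counts per gene and cell barcode. Reads had been handled with fastp, STAR and Seurat on GRCm38 (mm10), per the submitters' processing notes, which list no versions. The labels do not say which end of the transcript was counted. The lowest barcode of the deposited matrices had 500 UMIs.

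Barcodes below 500 UMIs or 300 genes, or above 20% mitochondrial UMIs, were dropped. Scrublet (scanpy 1.11.5) scored doublets, and the highest scores were removed up to 0.8% per 1000 cells, since its automatic threshold marked between 0.00823% and 5.94%. A cell was gated to the list with the largest share of detected markers, with at least 3 detected and a lead of 0.2 in share over lists of other lineages, a rule chosen after marker detection was seen. The members, lists and tests were chosen with earlier results of these data known. Values per library were printed for the 12 collagen genes with the largest mean CPM, the leading gene of each type, genes called by any test, and genes with at least 20 UMIs whose highest type mean was at least 5 times the next. Of each processing list up to 4 genes with the smallest p were named; other genes named were chosen after their values were seen.

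UMIs were summed per library and type and tested with edgeR 4.0.16 (quasi-likelihood, filterByExpr, TMM, Benjamini-Hochberg adjustment, threshold 0.05). CPM was taken over all UMIs of the same sum. GAL was tested against WT in the whole lung and in 17 types with at least 30 cells in every library. Pairs of types were tested with the library as a block, over libraries with at least 20 cells of both. Standard errors were the log2 fold change over the root of F. DESeq2 1.42.0, its size factors, no count filter, other cell filters, equal composition and leaving out each library were alternatives. The fits were tested on simulated data.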

Additional observations from a re-analysis of the deposited data

Results flagged for a closer look

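For 3 of the collagen genes tested, both libraries of each genotype were ordered one way in at least 1 cell type and the opposite way in another. The difference between the types was not tested, and the share of all genes with such opposite orders was not computed. Within 1 comparison, both GAL libraries lay above both WT libraries for 18.1% of all genes in the whole lung and 17.4% in adventitial fibroblasts. Col4a2 had a log2 fold change of GAL over WT of 0.55 in ductal myofibroblasts, at 195 and 259 against 182 and 133 CPM, and of 0.47 in aerocytes, at 391 and 488 against 362 and 289 CPM. In smooth muscle it was -0.18, at 243 and 211 against 268 and 262 CPM. Col14a1 had 2.09 in general capillary cells, at 5.29 and 4.16 against 0.565 and 1.498 CPM, and 0.84 in T cells, at 3.22 and 1.91 against 1.58 and 1.25 CPM. In smooth muscle it was -0.43, at 95.1 and 69.0 against 110 and 123 CPM. Col27a1 had 0.99 in T cells, at 1.97 and 2.64 against 1.05 and 1.25 CPM, and 2.28 in alveolar macrophages, at 1.17 and 3.28 against 0.545 and 0.419 CPM. In alveolar fibroblasts it was -0.88, at 50.4 and 40.6 against 96.3 and 75.1 CPM. None of these 9 values was called by edgeR in its own type. All lymphocytes together held 4.02, 2.36, 2.35 and 2.13 CPM of Col14a1 in the 4 libraries. For Col27a1 they held 2.91, 3.73, 2.11 and 3.16 CPM. The capillary, T cell and macrophage levels of these 2 genes lay near or below those values.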

How the results depend on the processing

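In the whole lung edgeR called 0 genes, DESeq2 29, and leaving out 1 library gave 0 to 660 genes and 0 to 18 collagen genes. The median log2 fold change of collagen genes, 0.99, ranged from 0.26 to 1.42 on leaving out 1 library and was 0.33 with equal composition, where Col14a1 had -0.028, Col4a6 -0.072 and Col20a1 -0.21. On leaving out 1 library Col6a3 ranged from -0.00156 to 1.56, Col4a3 from -2.49 to 3.76 and Col4a4 from -0.81 to 3.19, each lowest without GAL replicate 1. In alveolar fibroblasts the median, 0.03, ranged from -0.15 to 0.29 on leaving out 1 library, with -0.15 without GAL replicate 1 and -0.14 without WT replicate 2. Over the gated types 34 genes were called, 82 by DESeq2, 795 with no filter on low counts and 240 to 772 on leaving out 1 library; collagen genes called were 0, 3 with no filter, and 0 to 3. Adventitial against alveolar fibroblasts gave 3604 genes, 2018 by DESeq2. Pericytes against alveolar fibroblasts gave 2295, 1308 by DESeq2 and 1228 to 2187 on leaving out 1 library. Aerocytes against general capillary cells gave 3400, 1875 by DESeq2, with 1 to 6 collagen genes on leaving out 1 library. Arterial against general capillary cells gave 304, 140 by DESeq2 and 85 to 167, with 2 collagen genes, 1 by DESeq2 and 0 to 2. The cause of these differences was not tested. No paired analysis was possible because the labels pair no GAL library with a WT library, and the replicate numbers used here only follow accession order. Leaving out a library leaves 1 sample in a group, assumed to vary like the others. Arterial, lymphatic, pericyte and alveolar type 1 gates held few cells, which limits their values.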
